A study of Mus musculus with 10 samples.

Results

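The core circadian clock genes were examined in liver RNA of mice without SCD1 and of wild-type mice. The set held 10 genes, namely Arntl, Clock, Npas2, Cry1, Per1, Per2, Per3, Nr1d1, Nr1d2 and Dbp, and its members were all probe sets whose platform gene symbol was one of these. The array carried 10 such probe sets for 9 of the genes, among 9977 probe sets in all. Dbp had no probe set under its symbol and was not analysed here. After a filter on dim signal, 8 probe sets, 1 for each of 8 genes, were tested among 7569 in all. The SCD1 -/- group comprised 5 mice that lacked both working copies of Scd1, on a mixed background of 129 and C57BL/6J, with the allele described no further in the labels. The SCD1 +/+ group comprised 5 C57BL/6J mice with Scd1 intact. All were females aged 6 weeks that ate chow and were not fasted, and each Affymetrix U74A array carried the RNA of 1 liver, so the replicates were animals. The sources used here do not give the time of day at which livers were taken. Arrays are called null 1 to null 5 for SCD1 -/- livers and WT 1 to WT 5 for SCD1 +/+ livers.

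The circadian clock of mammalian cells is a feedback loop of transcription. ARNTL (also called BMAL1) pairs with CLOCK or its relative NPAS2 and turns on the Per, Cry and Nr1d genes, whose PER and CRY proteins then block the pair, while NR1D1 and NR1D2 (REV-ERB alpha and beta) repress Arntl, Clock, Npas2 and Cry1. In liver the loop is set strongly by feeding time, and many enzymes of lipid, bile acid and glucose metabolism follow it. Transcripts of Arntl, Clock, Npas2 and Cry1 peak around the end of the night and dawn in mouse liver (the dawn group), and those of the Nr1d and Per genes in the day and around dusk (the day group).

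The loop acts through short promoter elements, so the promoters are shown for the 3 genes with the smallest p-values (Cry1, Npas2 and Nr1d2), for Nr1d1 as the relative of Nr1d2, and for the other 2 genes in which an element was found. Sequences are RefSeq's on build GRCm38.p6, 250 bases before the annotated start, written 5′ to 3′ on the gene's strand. RefSeq entries were matched for 8 of the 9 genes, all but Per2, with 12 windows between them. Capitals mark an E-box (CACGTG), an E-prime box (CACGTT, read here as AACGTG from the other strand) or a D-box core (TTATGTA).
Cry1, chr10:85185055-85185304, minus strand: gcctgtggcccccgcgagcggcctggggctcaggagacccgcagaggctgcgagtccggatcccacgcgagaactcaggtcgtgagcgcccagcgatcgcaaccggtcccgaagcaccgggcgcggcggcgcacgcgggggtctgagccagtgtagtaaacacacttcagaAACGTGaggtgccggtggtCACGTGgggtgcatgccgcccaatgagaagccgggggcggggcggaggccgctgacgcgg
Npas2, chr1:39194022-39194271, plus strand: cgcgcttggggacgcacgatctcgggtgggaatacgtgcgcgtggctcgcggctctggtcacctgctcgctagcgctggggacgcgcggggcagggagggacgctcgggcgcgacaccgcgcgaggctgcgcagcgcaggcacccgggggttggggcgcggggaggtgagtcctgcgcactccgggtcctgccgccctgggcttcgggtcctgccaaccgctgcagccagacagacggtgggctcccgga
Nr1d2, chr14:18239107-18239356, minus strand: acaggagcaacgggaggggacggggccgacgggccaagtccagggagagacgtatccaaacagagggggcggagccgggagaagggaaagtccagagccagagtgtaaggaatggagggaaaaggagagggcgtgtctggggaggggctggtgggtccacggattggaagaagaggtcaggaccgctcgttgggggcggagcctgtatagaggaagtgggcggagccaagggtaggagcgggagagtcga
Nr1d1, chr11:98775378-98775627, minus strand: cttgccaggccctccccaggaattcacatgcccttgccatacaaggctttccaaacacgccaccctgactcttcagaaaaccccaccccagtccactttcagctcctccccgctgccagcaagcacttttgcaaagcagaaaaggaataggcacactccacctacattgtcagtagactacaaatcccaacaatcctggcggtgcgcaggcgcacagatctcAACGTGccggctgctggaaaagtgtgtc
Per1, chr11:69098699-69098948, plus strand: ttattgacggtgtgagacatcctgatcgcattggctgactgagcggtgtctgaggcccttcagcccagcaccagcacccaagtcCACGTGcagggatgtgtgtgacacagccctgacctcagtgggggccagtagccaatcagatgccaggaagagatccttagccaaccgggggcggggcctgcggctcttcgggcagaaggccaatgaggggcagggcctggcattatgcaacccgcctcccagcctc
Per3, chr4:151044666-151044915, minus strand: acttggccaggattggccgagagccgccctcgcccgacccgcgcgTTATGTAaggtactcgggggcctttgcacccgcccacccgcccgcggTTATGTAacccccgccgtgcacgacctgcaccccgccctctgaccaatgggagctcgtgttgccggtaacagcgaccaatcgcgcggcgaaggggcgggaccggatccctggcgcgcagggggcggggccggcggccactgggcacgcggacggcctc

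A D-box core of the form TTACGTA and the ROR element cores, spelled TAGGTCA and TGGGTCA, were searched as well, with every element searched on both strands and no matches overlapping. Matches to any of the 6 strings in any window occurred in 4 of the 8 genes. The Cry1 window held an E-box 60 bases and an E-prime box 79 bases before the start. An E-prime box lay 28 bases before the start of Nr1d1, an E-box 166 bases before that of Per1, and D-box cores 158 and 205 bases before that of Per3. Another Per1 window, from base 69099902 of chromosome 11, is not shown and held none of the strings. None of the 6 letter strings occurred in the windows of Arntl, Clock, Npas2 or Nr1d2. Of all 32851 RefSeq windows of this length, 6.02% held the E-box, 3.85% the E-prime box, 2.34% the TTATGTA core, 0.432% the TTACGTA core, 2.23% TAGGTCA and 3.24% TGGGTCA. These shares are per window and per string, unlike the count of 4 genes. The matches describe letters and were not tested for binding.

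Values below are quantile normalized intensities, with values under 351, the 25th percentile, raised to it before log2 was taken, and differences are SCD1 -/- minus SCD1 +/+ on the log2 scale. A probe set was called where its limma p, adjusted by Benjamini-Hochberg over all 7569, was under 0.05. The Scd1 probe set 94056_at averaged 419 ± 308 in SCD1 -/- livers and 17523 ± 2613 in SCD1 +/+ livers (SD, n = 5 each). Another Scd1 set, 94058_r_at, was dim in both, at 384 ± 38.6 in SCD1 -/- and 327 ± 69.5 in SCD1 +/+ livers. Hepatocyte markers summed to 133562 to 148260 in SCD1 -/- and 133499 to 149709 in SCD1 +/+ livers. Of these, 0 of 9 tested were called, and Apoa2 was below the floor on all arrays. Endothelial, stellate, erythroid, cholangiocyte, adipocyte and pancreas markers also had 0 called, and their sums overlapped between genotypes. Among all probe sets tested, 6.33% were called, 2.76% lower. Of the markers of other cell types, the sum over lymphocyte genes was 6598 to 7077 in SCD1 -/- and 7483 to 8427 in SCD1 +/+ livers (1 of 3 tested called, lower, with Ptprc below the floor on all arrays), and that over macrophage genes 14702 to 16002 in SCD1 -/- and 15353 to 25583 in SCD1 +/+ livers (0 of 7 called, Lyz2 and Marco below the floor). The ratio of 3′ to 5′ signal was 0.908 to 1.02 in SCD1 -/- and 0.845 to 0.951 in SCD1 +/+ livers for actin, 0.807 to 0.908 in SCD1 -/- and 0.803 to 0.928 in SCD1 +/+ livers for Gapdh, 0.109 to 1.81 in SCD1 -/- and 0.81 to 1.78 in SCD1 +/+ livers for the transferrin receptor, and 1.39 to 1.79 in SCD1 -/- and 0.879 to 1.43 in SCD1 +/+ livers for pyruvate carboxylase. The part of these in the results was not tested. Chip lot divided the arrays exactly as genotype and strain background did, and these 3 cannot be told apart. Times of hybridisation placed null 1 to null 4 in fluidics run 1, null 5 with WT 1 to WT 3 in run 2, and WT 4 and WT 5 in run 3, with a new run after a gap of over 1 hour. Runs 1 and 3 each held 1 genotype. Differences with run as a block therefore rest on null 5 against WT 1 to WT 3, as those within run 2 do. A note in the files says that evaporation made the cRNA amount of WT 3 inexact. In bulk liver, fewer cells of a type and less RNA per cell cannot be told apart.

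Among the clock genes, Cry1 was lower in SCD1 -/- livers and was the 1 probe set of 8 that passed the threshold, against 6.33% of all probe sets tested (2.76% lower and 3.57% higher). Npas2 and Nr1d2 averaged higher in SCD1 -/- livers and came close to the threshold without passing it. The other 5 tested genes, Arntl, Clock, Nr1d1, Per1 and Per3, differed by at most 0.13 in either direction and their groups overlapped. Before adjustment 3 of 8 had a limma p under 0.05, against 26% of all probe sets tested.

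**Figure D1:**
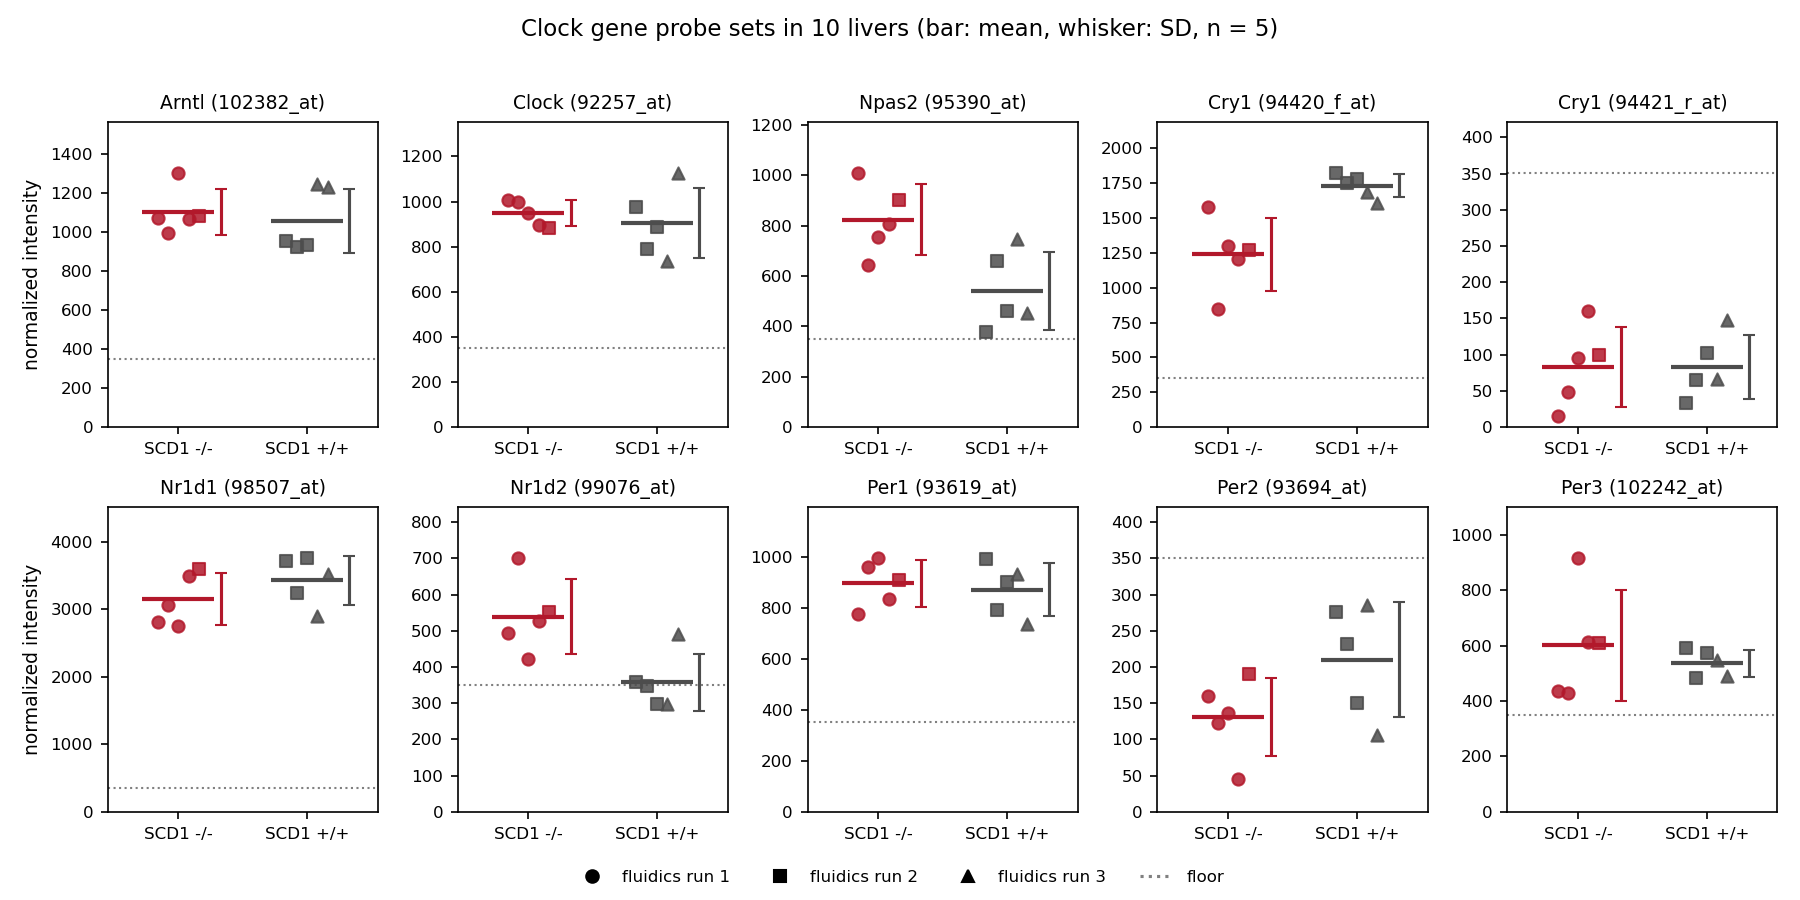
Normalized intensity (linear axis from 0) of the 10 clock gene probe sets in 5 SCD1 -/- livers (red) and 5 SCD1 +/+ livers (grey). Points are single livers with their fluidics run as the marker shape, bars are means, whiskers are SDs, and the dotted line is the floor of 351. Cry1 (94420_f_at) is the panel in which the groups do not overlap.

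The activator genes differed from each other. Arntl, the partner common to all activating pairs, had 1070, 997, 1303, 1065 and 1080 in null 1 to null 5, against 953, 921, 932, 1244 and 1228 in WT 1 to WT 5. The groups overlapped, and the difference of 0.07 ± 0.12 (SE) had a limma adjusted p of 0.744. Both high SCD1 +/+ values, 1244 and 1228, came from run 3, and the SCD1 +/+ livers of run 2 averaged 0.40 below those of run 3 on the log2 scale. Within run 2 the Arntl difference was 0.21, and between null 1 to null 4 and WT 4 to WT 5 it was -0.16, so its direction depended on which runs were set against each other. Clock, the histone acetyltransferase that pairs with ARNTL, had 1008, 999, 950, 895 and 883 in SCD1 -/- livers, against 976, 791, 887, 736 and 1127 in SCD1 +/+ livers. The highest and the lowest of its 10 values were both in SCD1 +/+ livers, and the difference was 0.08 ± 0.12 (limma adjusted p = 0.699).

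Npas2, the relative of Clock that can take its place beside ARNTL, had 1009, 642, 756, 806 and 903 in SCD1 -/- livers, against 378, 660, 462, 747 and 452 in SCD1 +/+ livers. Of the SCD1 -/- livers, 4 lay above every SCD1 +/+ liver, and null 2 lay between SCD1 +/+ values. The difference was 0.64 ± 0.19 (SE), a 1.56-fold higher mean, with a 95% interval from 0.24 to 1.04 and a limma adjusted p of 0.0581. An exact permutation test of this value alone over the 252 assignments of arrays gave p = 0.0317, two-sided. Of the 10 arrays left out in turn, only WT 4, the highest SCD1 +/+ liver, brought a call (limma adjusted p = 0.0164). The highest limma adjusted p with an array left out was 0.124. The difference was 0.89 within run 2 and 0.45 between the livers of runs 1 and 3, and with run as a block the limma adjusted p was 0.272.

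The repressor gene Cry1 had 1577, 845, 1298, 1207 and 1270 in SCD1 -/- livers, against 1825, 1754, 1781, 1687 and 1612 in SCD1 +/+ livers, by probe set 94420_f_at. Each SCD1 -/- liver lay below each SCD1 +/+ liver, with null 1 and WT 5 the closest. Groups without overlap made up 8.13% of all probe sets tested, and those with SCD1 -/- lower 4.1%. The mean was 1239 ± 262 in SCD1 -/- and 1732 ± 83.3 in SCD1 +/+ livers (SD, n = 5 each), a difference of -0.51 ± 0.14 (SE), or 1.42-fold lower, with a 95% interval from -0.80 to -0.21. The limma adjusted p was 0.0447, and the exact permutation p was 0.00794, the smallest that 5 against 5 arrays allow. On the log2 scale the spread was 0.33 (SD) among SCD1 -/- livers and 0.07 among SCD1 +/+ livers, with null 2 the lowest and null 1 the highest of the SCD1 -/- group.

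Since the Cry1 groups did not overlap in normalized values, leaving out arrays or runs could not turn the sign of its difference. The call was fragile. Leaving out any one of null 2 to null 5, WT 1, WT 2, WT 3 or WT 5 ended it (limma adjusted p 0.0501 to 0.0946), and leaving out null 1 or WT 4 kept it (0.0303 and 0.0393). Within run 2 the difference was -0.49 and between runs 1 and 3 it was -0.46, close to the value over all arrays, but with run as a block the limma adjusted p was 0.39. The suffix of 94420_f_at marks a set whose probes may also match related sequences of a gene family. The same holds for 101805_f_at of Nfil3, 101787_f_at of Noct and 103896_f_at of Igfbp1, given below. The second Cry1 set, 94421_r_at, lay below the floor on all 10 arrays, between 15 and 160 in SCD1 -/- and between 34 and 148 in SCD1 +/+ livers, and gave no second measurement of the gene.

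The Per genes, which encode the partners of the CRY proteins, showed no call. Per1 had 777, 963, 998, 835 and 910 in SCD1 -/- livers, against 994, 793, 903, 934 and 737 in SCD1 +/+ livers, and the 2 ranges were nearly the same. Its difference was 0.04 ± 0.11 (SE; limma adjusted p = 0.844), and its sign turned without WT 5 (-0.02). Per3 had 435, 428, 917, 613 and 608 in SCD1 -/- livers, against 591, 484, 572, 546 and 489 in SCD1 +/+ livers. Of the SCD1 -/- livers 3 lay above and 2 below the whole SCD1 +/+ group, so the spread was 0.45 on the log2 scale in SCD1 -/- and 0.13 in SCD1 +/+ livers. The Per3 difference of 0.11 ± 0.18 (limma adjusted p = 0.742) turned to -0.06 without null 3. Per2, a family member that responds to glucocorticoids and temperature in mouse liver, lay below the floor on all 10 arrays, with 160, 123, 136, 46 and 190 in SCD1 -/- livers against 276, 232, 151, 286 and 106 in SCD1 +/+ livers. It passed no filter and got no limma test, its groups overlapped, and the exact permutation p of the unfloored values was 0.111.

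The genes of the repressor receptors of the second loop had unlike differences, and neither was called. Nr1d1, which encodes the heme-binding receptor REV-ERB alpha, had 2816, 3072, 2759, 3500 and 3604 in SCD1 -/- livers, against 3724, 3245, 3768, 2900 and 3520 in SCD1 +/+ livers. The groups overlapped, and the difference was -0.13 ± 0.10 (limma adjusted p = 0.455). It was 0.01 within run 2 and 0.00 on the deposited scale, so no direction can be given. Nr1d2, which encodes REV-ERB beta, had 494, 702, 423, 526 and 552 in SCD1 -/- livers, against 359, 347, 298, 297 and 490 in SCD1 +/+ livers. Every SCD1 -/- liver but null 3 lay above every SCD1 +/+ liver, null 1 narrowly, and WT 2 to WT 4 lay below the floor. The difference was 0.50 ± 0.14 (SE), with a 95% interval from 0.18 to 0.81, a limma adjusted p of 0.0576 and an exact permutation p of 0.0159. With the floor at the 10th percentile it was 0.60. Of the 10 arrays left out in turn, only null 3 and WT 5 brought a call (limma adjusted p = 0.0418 and 0.0282). The highest limma adjusted p with an array left out was 0.129. Within run 2 the difference was 0.64 and between runs 1 and 3 it was 0.35, and with run as a block the limma adjusted p was 0.296.

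Related members were also set against each other within each liver, for 6 pairs picked after their values had been seen and therefore given with no p. The difference of Nr1d2 exceeded that of Nr1d1 by 0.62 ± 0.16 (SE). In the log ratio of the 2 genes all 5 SCD1 -/- livers lay above all SCD1 +/+ livers. Nr1d2 stood at the floor in WT 2 to WT 4, and the share of gene pairs so separated was not computed. Cry1 lay 0.62 ± 0.16 below its paralog Cry2, whose own difference was 0.11 (limma adjusted p = 0.479), and 4 of 5 SCD1 -/- livers lay below all SCD1 +/+ livers in this ratio. For Npas2 over Clock the value was 0.56 ± 0.31, and for Npas2 over Arntl 0.57 ± 0.22. Npas2 over Cry1, both of the dawn group, gave 1.15 ± 0.21, and Per3 over Per1 gave 0.07 ± 0.18.

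The phase groups overlapped in their differences. The 4 dawn genes had a median difference of 0.08 (range -0.51 to 0.64) with 3 positive and 1 negative, and the 4 day genes a median of 0.08 (range -0.13 to 0.50), also with 3 positive and 1 negative. The median over all probe sets tested was -0.02. For each array the mean of the day genes minus the mean of the dawn genes was set against the SCD1 +/+ average. This contrast was -0.34, 0.30, 0.08, 0.13 and 0.13 in null 1 to null 5, against 0.20, -0.11, 0.13, -0.16 and -0.05 in WT 1 to WT 5. It averaged 0.06 ± 0.24 (SD, n = 5) in SCD1 -/- livers, and the SCD1 +/+ livers, at 0 by construction, had an SD of 0.16. Null 1 and null 2 were the outermost livers in opposite directions. The dawn group held both the called decrease of Cry1 and the largest positive difference, that of Npas2. Where Nr1d2 and Per3 were lost to a higher floor or a stricter filter, the day median was -0.04.

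**Figure D2:**
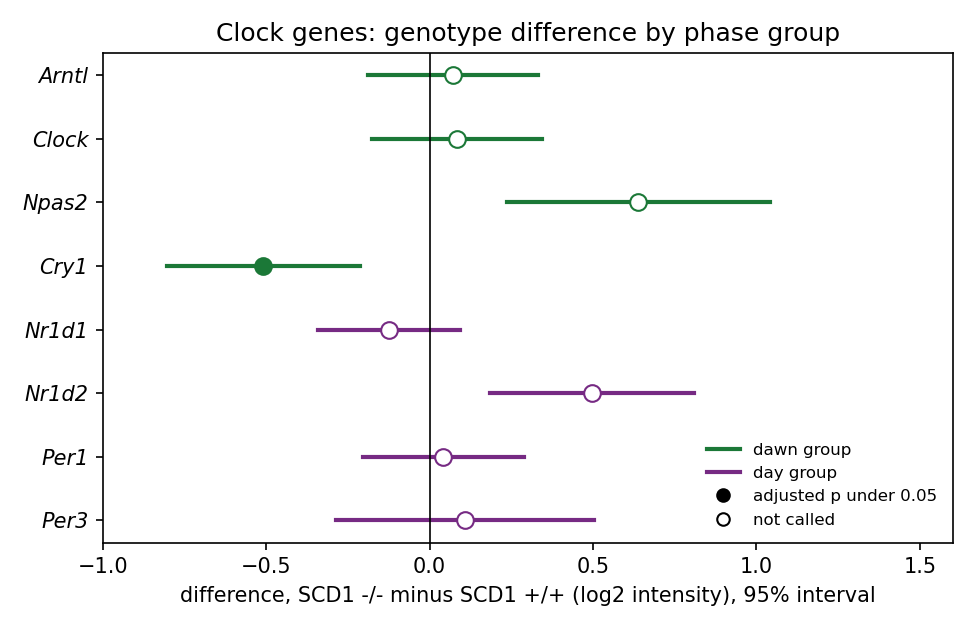
Genotype difference of the 8 tested clock genes on the log2 intensity axis, SCD1 -/- minus SCD1 +/+ (points) with 95% intervals (lines), 4 dawn genes in green and 4 day genes in purple. Cry1 at -0.51 is the filled, called point. The intervals of Npas2 and Nr1d2 lie above 0 although neither passed after adjustment.

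No joint variation of clock genes among livers of 1 genotype was detected with 10 arrays. Of 28 pairs of genes, with genotype means removed, 0 reached p under 0.05 by a permutation test within genotype (100000 resamples), before or after adjustment over the 28. Pearson's r ran from -0.71 to 0.51, with 11 positive and 17 negative. The lowest was Cry1 with Nr1d2, at r = -0.71 (permutation p = 0.0605, adjusted 0.515) and Spearman's rho = -0.71 (permutation p = 0.0535), and r was -0.75 without the 2 outermost arrays. With the means of each run and genotype removed as well, as chosen after the data were seen, the 9 arrays left (null 5 being alone in its run and genotype) gave r = -0.72 and rho = -0.79 for this pair (exact permutation p = 0.188, adjusted 0.656). In that setting 1 of the 28 pairs, Arntl with Per3 (r = 0.90, rho = 0.75), had an unadjusted exact p under 0.05 (0.0174) and none an adjusted one (0.486 for Arntl with Per3). By gene, the SD within groups was smallest for Per1 (0.16) and Nr1d1 (0.17) and largest for Npas2 (0.34) and Per3 (0.33) on the log2 scale.

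**Figure D3:**
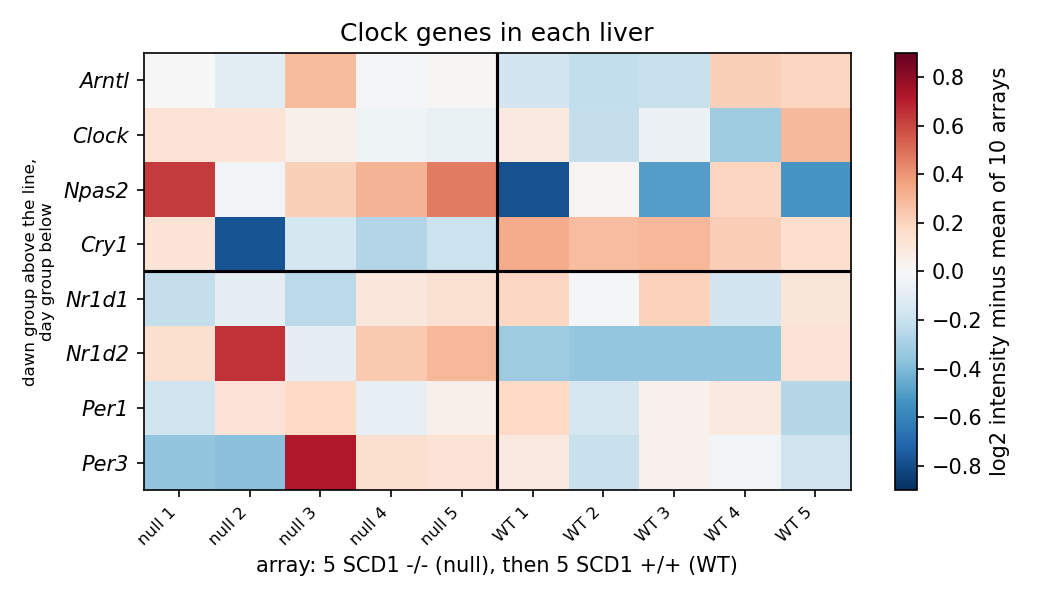
Log2 intensity of the 8 tested clock genes (rows) in each of 10 livers (columns, SCD1 -/- then SCD1 +/+), as the difference from each gene's mean over 10 arrays (colour scale). The Cry1 row is lowest in null 2, the Per3 row highest in null 3, and neither block of 4 rows changes direction as a whole at the genotype line.

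Across arrays, with genotype means removed, the probe sets most like Cry1 among 6733 compared were those of Strada, which encodes a partner of the kinase LKB1 (r = 0.94), Mrpl17, of the mitochondrial ribosome (r = 0.92), and Srsf11, a splicing factor (r = 0.91). The most opposite were Nr5a2, which encodes the liver receptor LRH-1 (r = -0.96), Rpap1 (r = -0.91) and Spef1 (r = -0.90). These are extremes of many comparisons over the same 10 arrays, given as a description, and none of the 6 was itself called between genotypes.

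Other factors of the loop showed no call by limma. On the array were 7 of 15 such genes, with 8 tested probe sets and a median difference of 0.06. Of these, 0 were called, against 6.33% of all probe sets tested. An unadjusted limma p under 0.05 was found for 1, against 26% of all. Cry2 had 965, 988, 1101, 1189 and 1171 in SCD1 -/- livers, against 1017, 946, 1020, 1019 and 997 in SCD1 +/+ livers, with overlap. Nfil3, a repressor that competes with DBP at D-boxes, had 2 tested sets, with differences of -0.20 (limma adjusted p = 0.077) and -0.33 (0.353). The first of them, 101805_f_at, had 12960, 13214, 13242, 12846 and 13030 in SCD1 -/- livers, all below the 15088, 15505, 16989, 13812 and 13739 of SCD1 +/+ livers. Groups without overlap made up 8.13% of all probe sets tested. The other set, 102955_at, was far dimmer, averaging 757 in SCD1 -/- and 991 in SCD1 +/+ livers. Bhlhe40 (DEC1, a repressor at E-boxes) differed by -0.22, Rora, an activator of Arntl, by 0.10, Timeless by 0.03, and the NR1D corepressor subunit Hdac3 by 0.13, with limma adjusted p-values of 0.293, 0.671, 0.888 and 0.478. Nr1h3, the oxysterol receptor LXR alpha, differed by 0.10 (limma adjusted p = 0.644).

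Of the enzymes that modify clock proteins, 13 genes with 19 tested probe sets were measured, with a median of 0.07, 1 call higher and 0 lower, against 3.57% higher and 2.76% lower among all probe sets. Ppp1cb, a catalytic subunit of the phosphatase PP1, which acts on PER proteins, had 1298, 1866, 1095, 1342 and 1251 in SCD1 -/- livers, against 835, 1045, 863, 556 and 875 in SCD1 +/+ livers. The groups did not overlap, as in 8.13% of all probe sets tested, and the difference was 0.72 ± 0.17 (SE, limma adjusted p = 0.0278). The call ended when null 1, null 2, null 5, WT 1 or WT 3 was left out (0.0554 to 0.0715), and with run as a block the difference was 0.46 (0.488). The PP1 subunit gene Ppp1cc differed by 0.35 (limma adjusted p = 0.0713), and the casein kinase 1 genes Csnk1a1 and Csnk1d, whose products mark PER proteins for breakdown, by -0.02 to 0.13 in 5 sets with overlapping groups.

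Genes whose liver transcripts follow the clock had 20 tested probe sets of 14 genes, with a median of -0.04, 2 calls lower and 0 higher, against 2.76% lower and 3.57% higher among all probe sets. Cdkn1a, the cell cycle inhibitor p21 and a target of NR1D1, had 1127, 1081, 1034, 1212 and 970 in SCD1 -/- livers, against 1392, 1596, 1611, 1347 and 1359 in SCD1 +/+ livers, by the called set 94881_at (-0.43 ± 0.10, limma adjusted p = 0.0233). The other Cdkn1a set, 98067_at, differed by 0.01 (limma adjusted p = 0.98), so the 2 sets disagreed. Noct, a rhythmic phosphatase once named a deadenylase, had 6314, 5690, 4700, 4619 and 6940 in SCD1 -/- livers, against 8192, 7116, 7637, 7069 and 7701 in SCD1 +/+ livers, by the called set 101787_f_at (-0.43 ± 0.11, limma adjusted p = 0.0338), and by 99535_at it differed by 0.09 (0.789). On the deposited scale the difference by 101787_f_at was -0.25 (limma adjusted p = 0.257), and with run as a block -0.14 (0.736), while that of Cdkn1a by 94881_at was -0.66 with run as a block (0.126). The Cdkn1a call ended when null 2, null 5, WT 2 or WT 3 was left out (0.0558 to 0.0636), and the Noct call without null 2, null 3, null 4, WT 1, WT 2, WT 3 or WT 5 (0.0503 to 0.0811).

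Systemic cues also set the liver clock. Of 8 tested probe sets for temperature and related cues, 3 were called lower and 0 higher, against 2.76% and 3.57% of all probe sets, and the called genes encode heat shock chaperones: Hspa1b (-1.19), Hspa8 (-0.80) and Hsph1 (-0.67), with limma adjusted p-values of 0.0464, 0.0209 and 0.0177. The chaperone genes Hsp90aa1 and Hspa1a of the same list differed by 0.33 and 0.15 (limma adjusted p = 0.2 and 0.471), and the cold-inducible Cirbp by -0.07 (0.72). The Hspa1b call ended without any one of null 1 to null 5, WT 1, WT 2 or WT 5 (0.0543 to 0.103), the Hspa8 call without WT 1 (0.0528), and the Hsph1 call under no array left out, though cyclic loess (0.0519), no filter (0.0513) and run as a block (0.324) ended it. Hspa8 lost its call on the deposited scale (0.0728), with cyclic loess (0.0746), no filter (0.0776) and run as a block (0.342). The Hspa1b difference was -0.74 with run as a block. Its groups overlapped, with null 4 at 628 and WT 3 at 543. Its call also ended (limma adjusted p) with cyclic loess (0.12), no filter (0.126), eBayes without trend (0.0561) and robust eBayes (0.0699). Floors at the 10th (0.0538) and 40th percentile (0.0556), a pseudocount of 16 without a floor (0.0561) and runs 1 and 3 alone (0.154) ended it as well. In runs 1 and 3 alone neither Hspa8 nor Hsph1 was called (limma adjusted p = 0.26 and 0.19). In run 2 alone they differed by -0.68 and -0.55. Among glucocorticoid-responsive genes, 5 of 15 tested probe sets were called higher and 1 lower, in 5 of 12 genes, with a median of 0.35. Among all probe sets, 3.57% were called higher and 2.76% lower. The 5 called higher include Ddit4, which passed the filter through the SCD1 -/- livers alone. They also include Zbtb16 by 92202_g_at, which lay at the floor in 4 SCD1 +/+ livers. Both this list and that of temperature and related cues were chosen with earlier results of these data known. Neither count is therefore independent support for a theme.

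Within the glucocorticoid list, Igfbp1, the growth factor binding protein of fasting, was called higher by 103896_f_at (2.22) and lower by 103897_r_at (-0.50), so its sets went opposite ways (limma adjusted p = 0.00375 and 0.0473). Ddit4, an inhibitor of mTORC1, had 705, 1875, 709, 2817 and 938 in SCD1 -/- livers, against 151, 172, 288, 255 and 214 in SCD1 +/+ livers, all 5 of which lay at the floor. It was at least 1.77 higher on the log2 scale. Its call carries no weight because it passed the filter through the SCD1 -/- livers alone, yet it stands in the counts of list calls. With the floor at the 40th percentile the bound was 0.98 (limma adjusted p = 0.075). Klf9, a rhythmic factor induced by glucocorticoids, had 3252, 3491, 2838, 3184 and 3874 in SCD1 -/- livers, against 2631, 2663, 2643, 2222 and 2882 in SCD1 +/+ livers. The ranges overlapped narrowly, and the difference was 0.35 ± 0.10 (SE; limma adjusted p = 0.0482). Tdo2, which starts tryptophan breakdown, was called by 93827_at (0.58, limma adjusted p = 0.0343) but not by 99269_g_at (0.35, 0.204), and the transcription factor gene Zbtb16 by 92202_g_at (0.59, 0.0199), with 4 SCD1 +/+ livers at the floor, but not by 92201_at (0.05, 0.872). For Zbtb16 92202_g_at all 5 SCD1 -/- livers lay above the floor and alone met the filter, so its call likewise carries no weight. That set was not tested with the floor at the 40th percentile or the filter at the median. The 9 uncalled probe sets of the list ran from -0.79 (Mt1, limma adjusted p = 0.354) to 0.51 (Dusp1, 0.109). Between them, Fkbp5 differed by -0.01 (limma adjusted p = 0.985), Tsc22d3 by -0.02 (0.908) and Tat by 0.05 (0.585). Mt2 differed by 0.14 (0.524) and Sgk1 by 0.44 (0.217). Leaving out arrays ended calls: null 1, null 2, null 4, null 5, WT 1, WT 3 or WT 5 for Igfbp1 103897_r_at (0.0695 to 0.108), null 1, null 2, null 4, null 5 or WT 1 to WT 4 for Klf9 (0.0532 to 0.116), any of null 1 to null 5 or WT 1 to WT 3 for Tdo2 (0.0526 to 0.0714), and null 2, null 5, WT 1 or WT 3 for Zbtb16 (0.0502 to 0.0565). With run as a block the limma adjusted p of the 12 called probe sets of these lists lay between 0.0787 and 0.736, so none was called, and 6 had an unadjusted p under 0.05. In that fit, resting on null 5 against WT 1 to WT 3, Klf9 and Zbtb16 differed by 0.55 and 0.98.

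**Figure D4:**
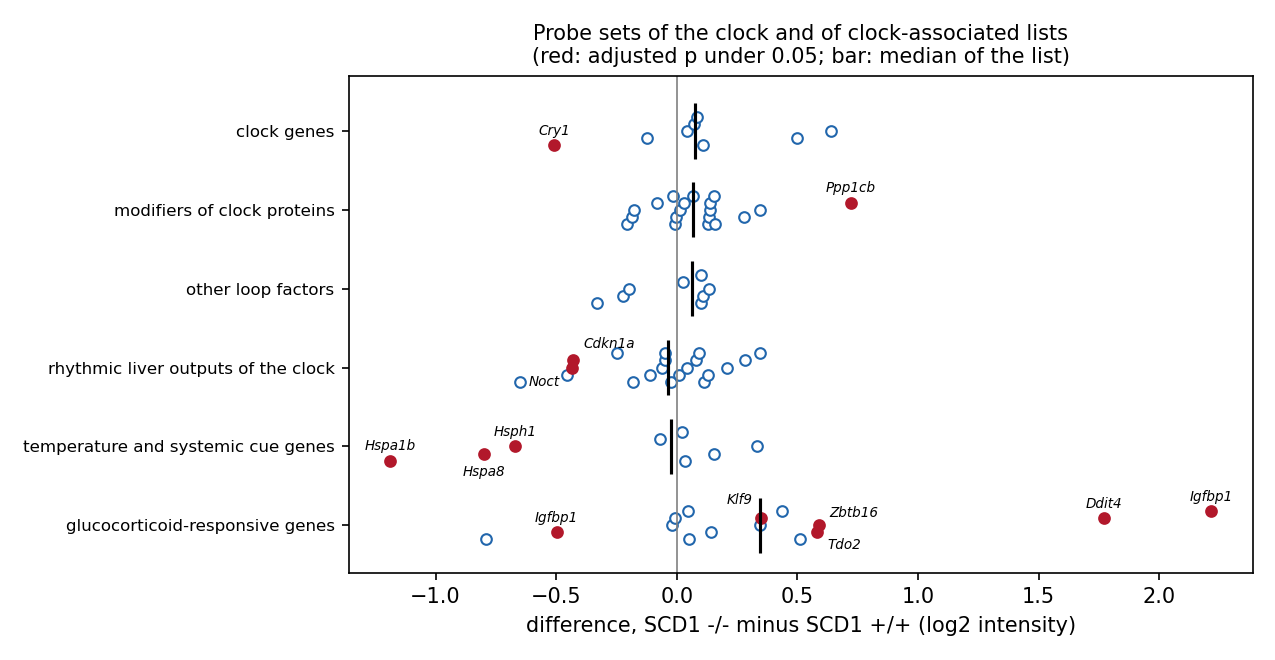
Genotype difference (log2 intensity, SCD1 -/- minus SCD1 +/+) of each tested probe set of the clock genes and of 5 lists of clock-associated genes, with filled red points called and bars at list medians. Cry1 is the called clock gene, Hspa1b lies lowest at -1.19, and the glucocorticoid list has its median at 0.35. Ddit4, among the filled points, passed the filter through the SCD1 -/- livers alone. Zbtb16, also filled, lay at the floor in 4 SCD1 +/+ livers by its called set.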

How the data were processed

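Liver RNA of 10 mice was measured on 1-colour arrays, 5 per genotype. The authors deposited 1 table of intensity values for 10043 probe sets, on a linear scale with 1.19% of values below 0. The sources used here do not say how probes were summarised into intensity. Trimmed means of the arrays (2% at each end) differed by 19.8%, over the 1% that called for normalization, so values were quantile normalized after 66 control probe sets were removed. They were floored at 351 (25th percentile) and taken to log2. Probe sets above the floor on at least 5 of 10 arrays were kept, 7569 of 9977. Values at the floor understate differences.

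The genotype difference was fitted in limma 3.58.1 under R 4.3.3, with lmFit and trended eBayes and no covariate, two-sided, Benjamini-Hochberg adjusted over the 7569, threshold 0.05. Intervals are at 95%. Single values were tested by exact permutation over 252 assignments, two-sided. The procedure was tested on simulated data. Python 3.11.15, numpy 2.4.6, pandas 2.3.3 and matplotlib 3.10.9 served for permutations and drawing.

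Gene names came from the platform's annotation, 8724 probe sets with 1 symbol, 346 with several and 907 with none. No gene was named from a set with several. The brightest probe set stood for a gene. The fluidics runs, chip lots and sample notes came from the deposited hybridisation settings.

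The members, phase groups and lists were chosen with earlier results of these data known. Named were all members, the Scd1 check, called genes of the lists, all other loop factors, and the 3 probe sets most like and most unlike Cry1. Ppp1cc, Csnk1a1, Csnk1d, Cirbp, Hsp90aa1, Hspa1a, Mt1, Mt2, Dusp1, Fkbp5, Tsc22d3, Tat and Sgk1 fell outside this rule. They were named after their values were seen, as were the 6 pairs of related genes. Replicate numbers did not pair the livers. Alternatives covered scaling, floor, filter, variance model, array weights, blocks, runs and each array left out.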

Additional observations from a re-analysis of the deposited data

Results flagged for a closer look

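Among 16 groups of 5 livers, 1 held a value far from the rest, and chance flags about 1 in 20 such groups. Nr1d2 in SCD1 +/+ livers was flagged because WT 5, at 490, stood apart from the others, at 297 to 359. The gap to its nearest neighbour was 0.936 of the group's range on the log2 scale, above the critical value of 0.71. In this group 3 of 5 livers lay at the floor, and without the floor the share was 0.621, below that value. Leaving out WT 5 gave Nr1d2 a difference of 0.59 between SCD1 -/- and SCD1 +/+ livers (limma adjusted p = 0.0282).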

How the results depend on the processing

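Since the Cry1 groups did not overlap in normalized values, the alternatives that left out arrays or runs could not turn its sign. Its deposited values did overlap. The difference ran from -0.60 to -0.38 under all 25 alternatives, and the call held under 9. Besides arrays left out, it was lost (limma adjusted p) on the deposited scale (0.066), with cyclic loess (0.0996), no filter (0.0963), eBayes without trend (0.051), the replicate block (0.0676), run as a block (0.39), run 2 alone (0.235) and runs 1 and 3 alone (0.475). Npas2 passed on the deposited scale (0.0418) and with array weights (0.0278), and Nr1d2 with array weights (0.0277), and both kept their sign throughout. The Npas2 difference was 0.34 with the floor at the 40th percentile. Signs turned for Nr1d1 on the deposited scale (0.00098), with run as a block (0.013) and in run 2 alone (0.013), for Arntl in runs 1 and 3 alone (-0.17), for Per3 without null 3 (-0.059, and -0.059 to 0.216 over the arrays left out) and for Per1 without WT 5 (-0.016, and -0.016 to 0.0919). The median of the day genes was -0.042 with the floor at the 40th percentile and with the filter at the median, where fewer genes were tested.

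The 1 clock call became 0 with cyclic loess, no filter, eBayes without trend, the replicate block, run as a block, run 2 alone and runs 1 and 3 alone, and 3 with array weights. The 12 list calls became 4 with cyclic loess, 4 with no filter, 7 with the replicate block, 0 with run as a block, 0 in run 2 alone and 1 in runs 1 and 3 alone. The 479 calls overall became 284 with cyclic loess, 303 with no filter, 1014 with array weights, 219 with the replicate block, 14 with run as a block, 7 in run 2 alone and 16 in runs 1 and 3 alone. With 1 array left out they ranged from 157 (without null 2) to 950 (without WT 4), the clock calls from 0 to 2 and the list calls from 3 to 15. On the deposited scale 480 were higher and 96 lower, against 270 and 209. The block by replicate number is no pairing: deviations of same-numbered livers correlated at -0.127 to 0.108, and 1 of 10 arrays correlated best with its own number. Run 2 alone leaves 1 SCD1 -/- array, assumed to vary like the others, and run as a block takes its differences from that same run. The Ddit4 difference could not be tested with a SCD1 -/- array left out, since the filter then removed it. The causes of these changes were not tested. With 5 arrays a group and a median residual SD of 0.18, small differences were not detectable, genotype, strain background and chip lot cannot be told apart, and time of day is unknown here.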
